A study of Homo sapiens with 6 samples.

Results

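The expression of 10 glycoprotein genes of the extracellular matrix was followed in U87 cells, an established human glioma line, after knockdown of PCGF1. They are SPARC, SPARCL1, FN1, TNC, THBS1, THBS2, POSTN, CCN1, CCN2 and TGFBI. The genes were chosen by name as matricellular or adhesive glycoproteins, with earlier results of these data known. Every probe set annotated with 1 of these symbols and no other was used. This gave all 10 genes and 45 probe sets, out of 18132 genes and 49293 probe sets measured. Total RNA was hybridised to 6 Affymetrix arrays. Of these, 3 arrays, numbered 1 to 3, came from cells given a lentivirus that carries a short hairpin RNA against PCGF1, and 3, numbered in the same way, from cells given the negative control (NC) lentivirus. Both lines were grown in DMEM with fetal bovine serum. The sources used here do not say whether a line was 1 clone or a pool, or how long after infection RNA was taken. The array names call the replicates of each group biological. No source says whether they were cultured separately. The p-values then rest on a spread between arrays that may be technical. The names of the shRNA arrays also carry T0 and those of the control arrays T1, without explanation, and what these stand for cannot be told apart from the knockdown.

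Matricellular proteins are secreted into the matrix but do not build its fibres. They bind collagen, growth factors and cell surface receptors, and so alter how cells attach, spread and move. SPARC, thrombospondins, tenascins, periostin and the CCN proteins are the classic members, while fibronectin is an adhesive glycoprotein that cells assemble into fibrils through integrins. Many of these genes are induced by TGF-beta, and CCN1 and CCN2 are the standard target genes of the YAP and TAZ coactivators and their DNA-binding partners, the TEAD factors. In glioma, several of them are known from the perivascular and invasive matrix. PCGF1 is the RING finger subunit that defines the PRC1.1 Polycomb complex, which is brought to CpG-rich promoters by KDM2B.

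Every value below is a log2 signal relative to the median of the 6 arrays, as deposited. Differences between arrays can be read from it, but not how strongly a gene is expressed, so the levels of different genes cannot be compared and the presence of glioma markers cannot be checked by level. The targeted gene was lower on all 3 arrays with the shRNA label than on any control array. On knockdown arrays 1 to 3 PCGF1 was at -0.27, -0.13 and -0.19, and on the control arrays at 0.13, 0.27 and 0.29, a log2 fold change of -0.43 ± 0.06 (SE, limma, adjusted p = 0.00410). The value rests on 1 probe set.

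Of the 10 genes, 6 rose in the knockdown arrays, 0 fell and 4 did not pass the test. SPARC, THBS2, FN1, TGFBI, CCN2 and CCN1 rose by 1.47-fold to 1.15-fold in that order, and in each of them all 3 knockdown arrays lay above all 3 control arrays. THBS1, POSTN, TNC and SPARCL1 had log2 fold changes between -0.05 and 0.05, with overlapping groups. Among all genes tested, 6.36% were called higher and 4.63% lower, 11% in all, at an adjusted p under 0.05 (limma, Benjamini-Hochberg over all genes), and the groups stood apart with knockdown higher in 17.1%. The median log2 fold change of the 10 genes was 0.25, beside -0.00809 over all genes. Because earlier results were known when the genes were chosen, these comparisons with all genes are a description and not a test. The count of all genes called, 1994, became 1070 or 980 when knockdown replicate 1 or 3 was left out, and 1120, 981 or 1028 when control replicate 1, 2 or 3 was, while 5 or 6 of the 10 genes were called whichever array was left out.

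**Figure D1:**
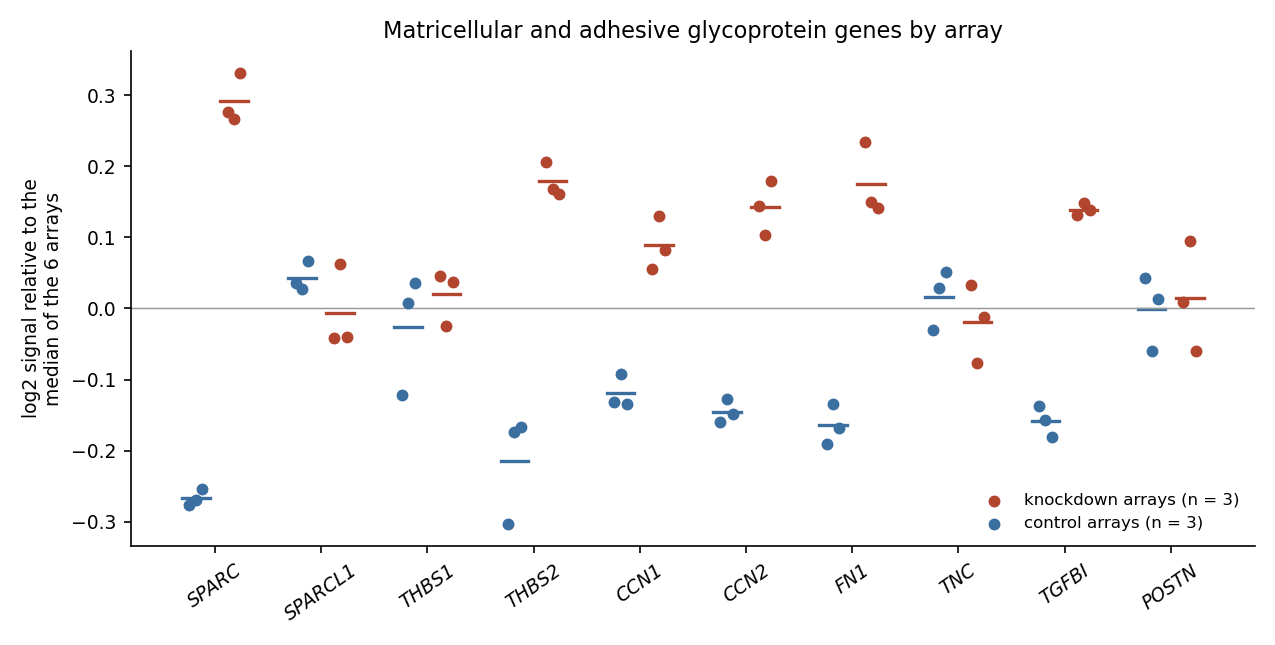
Log2 signal of each gene on each array (y axis, relative to the median of the 6 arrays) for the 10 genes (x axis), with 3 knockdown arrays in red, 3 control arrays in blue and a bar at each group mean. The knockdown arrays lie between 0.06 and 0.33 and the control arrays between -0.30 and -0.09 for the 6 genes that rose, and the groups overlap for SPARCL1, THBS1, TNC and POSTN.

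Promoter sequences are shown for 4 of the genes: SPARC, which rose most, CCN2, a TEAD target, and the related genes THBS2 and THBS1, of which only the first passed the test. Each is the 250 bases just before the annotated start of the gene, written 5′ to 3′ along the gene, from RefSeq on GRCh38.p14. Capitals mark GGAATG, the core of the TEAD site, or CATTCC, the same letters on the other strand. The promoters of FN1, TGFBI, TNC, POSTN and SPARCL1, not shown, held 0 matches, so the 4 shown are not typical of the genes.
SPARC (chr5:151686916-151687165, minus strand): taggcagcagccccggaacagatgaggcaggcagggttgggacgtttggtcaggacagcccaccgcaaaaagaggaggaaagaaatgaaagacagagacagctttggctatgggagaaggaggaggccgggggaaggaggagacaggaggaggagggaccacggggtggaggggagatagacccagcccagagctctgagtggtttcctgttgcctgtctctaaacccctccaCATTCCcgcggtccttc
CCN2 (chr6:131951373-131951622, minus strand): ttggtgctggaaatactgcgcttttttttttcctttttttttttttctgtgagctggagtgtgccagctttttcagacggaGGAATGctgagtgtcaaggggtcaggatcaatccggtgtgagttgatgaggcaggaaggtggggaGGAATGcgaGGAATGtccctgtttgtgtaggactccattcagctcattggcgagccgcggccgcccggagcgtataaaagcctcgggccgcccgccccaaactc
THBS2 (chr6:169253847-169254096, minus strand): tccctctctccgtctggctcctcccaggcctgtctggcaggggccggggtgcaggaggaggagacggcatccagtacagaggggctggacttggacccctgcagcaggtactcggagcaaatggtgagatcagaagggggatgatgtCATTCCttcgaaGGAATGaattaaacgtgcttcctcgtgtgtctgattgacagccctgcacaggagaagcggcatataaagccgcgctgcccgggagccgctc
THBS1 (chr15:39580829-39581078, plus strand): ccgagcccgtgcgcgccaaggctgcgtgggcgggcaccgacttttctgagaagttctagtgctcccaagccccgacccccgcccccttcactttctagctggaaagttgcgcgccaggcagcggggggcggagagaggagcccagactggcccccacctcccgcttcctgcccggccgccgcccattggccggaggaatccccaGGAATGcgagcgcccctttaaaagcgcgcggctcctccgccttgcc

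RefSeq promoters were matched for 9 of the 10 genes, CCN1 being the exception. Searched on both strands, GGAATG occurred in 11.9% of all 35116 promoters of this length and 3 times or more in 0.0826%. CCN2 held 3 matches, with their first bases 169, 104 and 95 bases before the start, THBS2 held 2 in opposite orientation at 103 and 91, and SPARC and THBS1 held 1 each, at 17 and 46. The letters were thus in front of 3 of the 5 risen genes with a promoter (SPARC, THBS2 and CCN2, not FN1 or TGFBI) and of THBS1, which did not pass the test. The SMAD box CAGAC, through which TGF-beta acts, was in 38.0% of promoters. It was found in THBS2 (3 matches), in CCN2, 177 bases before the start, and once each in THBS1, TNC and POSTN. The AP-1 site TGAGTCA (4.20% of promoters) occurred in POSTN alone among the 9, and TATAAA (10.7%) in CCN2, THBS2, POSTN and SPARCL1. No match overlapped a match of another motif. CpG dinucleotides ranged from 7 in SPARC to 32 in FN1 among the 5 risen genes and from 1 in SPARCL1 and POSTN to 24 in THBS1 among the other 4, beside a median of 11 over all promoters. The CpG counts of the risen genes and of the others overlapped.

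SPARC encodes osteonectin, a collagen-binding protein that weakens cell attachment. SPARC was at 0.28, 0.27 and 0.33 on knockdown arrays 1 to 3 and at -0.28, -0.27 and -0.25 on control arrays 1 to 3. The groups stood far apart beside the spread within each (means 0.29 ± 0.04 and -0.27 ± 0.01, SD, n = 3 each). SPARC rose by 0.56 ± 0.04 (SE, limma, adjusted p = 0.000266), 1.47-fold with a 95% interval of 1.38 to 1.56, and was number 35 of all genes by size of rise. All 8 of its probe sets were called higher, at 0.39 to 0.67. SPARCL1, also named hevin, is the nearest relative of SPARC and is abundant in astrocytes and blood vessels. It was at -0.04, 0.06 and -0.04 in the knockdown arrays and at 0.04, 0.03 and 0.07 in the control arrays. Knockdown replicate 2 lay within the range of the controls and the other knockdown arrays just below it. The log2 fold change of -0.05 (95% interval -0.15 to 0.05, adjusted p = 0.527) did not pass, nor did any of its 3 probe sets, at -0.14 to 0.01.

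The thrombospondins are large secreted proteins that bind CD36, CD47 and integrins, and both THBS1 and THBS2 are known as inhibitors of blood vessel growth. THBS2 was at 0.21, 0.17 and 0.16 in the knockdown arrays and at -0.30, -0.17 and -0.17 in the control arrays. Control replicate 1 was the lowest, and the groups stayed apart without it. THBS2 rose by 0.39 ± 0.05 (SE, limma, adjusted p = 0.00277), 1.31-fold, or by 0.35 without control replicate 1 (adjusted p = 0.00769), and its 3 probe sets, at 0.36 to 0.43, were all called. THBS1, which also activates latent TGF-beta, was at 0.05, -0.02 and 0.04 in the knockdown arrays and at -0.12, 0.01 and 0.04 in the control arrays. Its groups overlapped, and its log2 fold change of 0.05 (95% interval -0.07 to 0.16, adjusted p = 0.634) did not pass. The 5 probe sets of THBS1 lay at -0.09 to 0.16 and none was called.

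CCN1 (CYR61) and CCN2 (connective tissue growth factor) are integrin-binding proteins whose genes respond quickly to serum, stretch and TGF-beta. CCN2 was at 0.14, 0.10 and 0.18 in the knockdown arrays and at -0.16, -0.13 and -0.15 in the control arrays. It rose by 0.29 ± 0.04 (SE, limma, adjusted p = 0.00410), 1.22-fold, with all 3 probe sets called at 0.27 to 0.32. CCN1 was at 0.06, 0.13 and 0.08 in the knockdown arrays and at -0.13, -0.09 and -0.13 in the control arrays. The groups did not overlap, but the distance between them was the smallest among the 6 risen genes. CCN1 rose by 0.21 ± 0.04 (SE, limma, adjusted p = 0.0152), 1.15-fold, and of its 2 probe sets the one at 0.24 was called and the one at 0.18 was not (adjusted p = 0.105). The call of CCN1 was lost without knockdown replicate 3 (adjusted p = 0.0519), without control replicate 1 (0.0507) or without control replicate 3 (0.0584), and with its most variable probe set alone (0.0622).

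Fibronectin, the product of FN1, links integrins to collagen and is the substrate on which other matrix proteins are deposited. FN1 was at 0.23, 0.15 and 0.14 in the knockdown arrays and at -0.19, -0.13 and -0.17 in the control arrays. Knockdown replicate 1 was the highest and control replicate 1 the lowest, and the groups stood apart. FN1 rose by 0.34 ± 0.04 (SE, limma, adjusted p = 0.00301), 1.26-fold. This average covers 8 probe sets that differed in size, of which 6 were called higher, at 0.36 to 0.46. The other 2 were not called, one at 0.17 with groups that did not overlap (adjusted p = 0.193) and one at 0.01 with overlapping groups (adjusted p = 0.965). Which part of the transcript each probe set reads was not analysed here. Tenascin-C, encoded by TNC, is an antiadhesive protein of embryonic and tumour matrix and is prominent in malignant glioma. TNC was at 0.03, -0.08 and -0.01 in the knockdown arrays and at -0.03, 0.03 and 0.05 in the control arrays. Its groups overlapped, and the log2 fold change of -0.04 (95% interval -0.14 to 0.07, adjusted p = 0.679) did not pass. None of its 4 probe sets, at -0.11 to 0.03, was called.

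TGFBI and POSTN encode the fasciclin-domain proteins TGFBI (keratoepithelin) and periostin, which bind integrins and collagen and are induced by TGF-beta in many cells. TGFBI was at 0.13, 0.15 and 0.14 in the knockdown arrays and at -0.14, -0.16 and -0.18 in the control arrays. The knockdown arrays differed little from each other, with an SD of 0.00839. TGFBI rose by 0.30 ± 0.04 (SE, limma, adjusted p = 0.00277), 1.23-fold, and its 4 probe sets were nearly alike, at 0.29 to 0.31, and all called. POSTN was at 0.01, 0.10 and -0.06 in the knockdown arrays and at 0.04, -0.06 and 0.01 in the control arrays. Each group covered most of the range of the other, and the log2 fold change of 0.02 (95% interval -0.10 to 0.14, adjusted p = 0.883) did not pass. Its sign turned, to -0.03, with the most variable of its probe sets. The 5 probe sets of POSTN lay at -0.06 to 0.14, and none was called.

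Counted over probe sets, 25 of 45 were called higher and 0 lower, where 4.3% of all probe sets were called higher. All 25 belonged to the 6 risen genes, which have 28 probe sets, all with a positive fold change and 27 with every knockdown array above every control array, which held for 15.7% of all probe sets. The 17 probe sets of the other 4 genes were split into 7 positive and 10 negative, with 0 called. Among them the groups stood apart in 1 probe set of POSTN, with knockdown higher, and 1 of TNC, with knockdown lower. Probe sets of a gene read the same RNA and can share probes, so they are not replicates. The number called over all probe sets was 3571. It became 1427, 2053 or 1413 when knockdown replicate 1, 2 or 3 was left out, and 1444, 1402 or 1376 when control replicate 1, 2 or 3 was. The 10 genes then had 19 to 21 probe sets called.

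**Figure D2:**
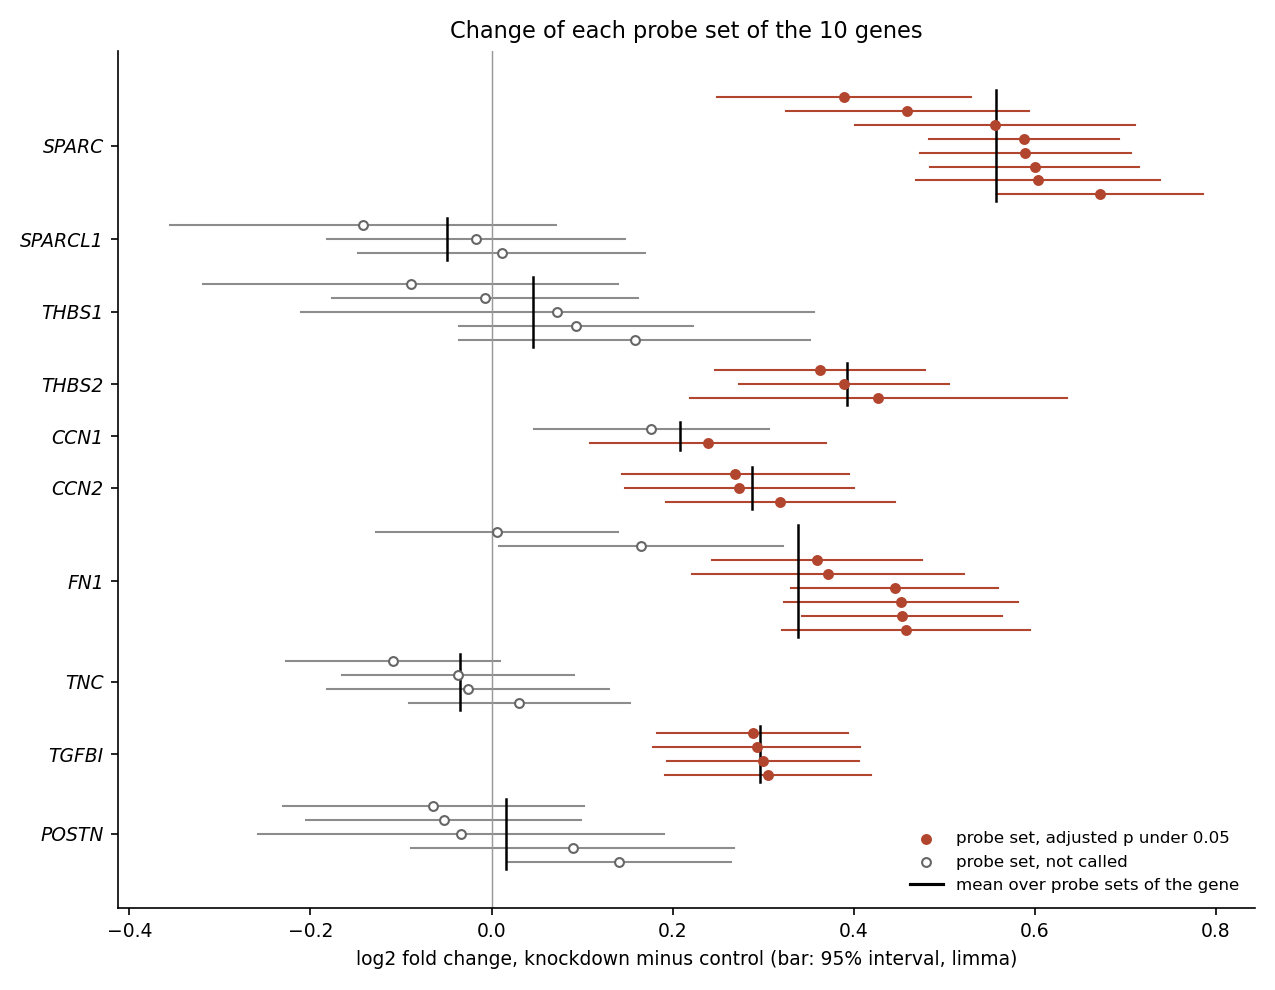
Log2 fold change of each of the 45 probe sets (x axis, knockdown minus control, with 95% intervals from limma) grouped by gene (y axis), with filled red points for those called, open points for those not called and a black line at the gene's average. All probe sets of SPARC, THBS2, CCN2 and TGFBI are filled, while 2 of 8 for FN1 and 1 of 2 for CCN1 are open, as are all those of SPARCL1, THBS1, TNC and POSTN.

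Ordered by change, the genes ran SPARC, THBS2, FN1, TGFBI, CCN2, CCN1, THBS1, POSTN, TNC and SPARCL1. The 95% intervals of all 9 neighbours in this order overlapped. Such overlap does not test a difference, and CCN2 and CCN1 apart, neighbours were not tested against each other. Related genes were also compared with each other on the same array, by the log2 ratio of one to the other. The ratio of SPARC to SPARCL1 was 0.30 ± 0.09 in the knockdown arrays and -0.31 ± 0.01 in the control arrays (SD, n = 3 each), a difference of 0.61. For THBS2 over THBS1 it was 0.16 ± 0.03 and -0.19 ± 0.01, a difference of 0.35, and for TGFBI over POSTN 0.12 ± 0.07 and -0.16 ± 0.05, a difference of 0.28. In these 3 comparisons the groups did not overlap, and each gave p = 0.1 in a two-sided exact permutation test, the smallest that 3 against 3 arrays allow (adjusted p = 0.133 over the 4 comparisons). CCN2 over CCN1 differed by 0.08, with values of 0.09, -0.03 and 0.10 in the knockdown arrays and -0.03, -0.04 and -0.01 in the control arrays. These overlapped (exact permutation p = 0.2, adjusted p = 0.2), so a difference between the changes of the 2 CCN genes was not shown. None of the 4 comparisons reached an adjusted p under 0.05, and with 3 against 3 arrays none could.

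**Figure D3:**
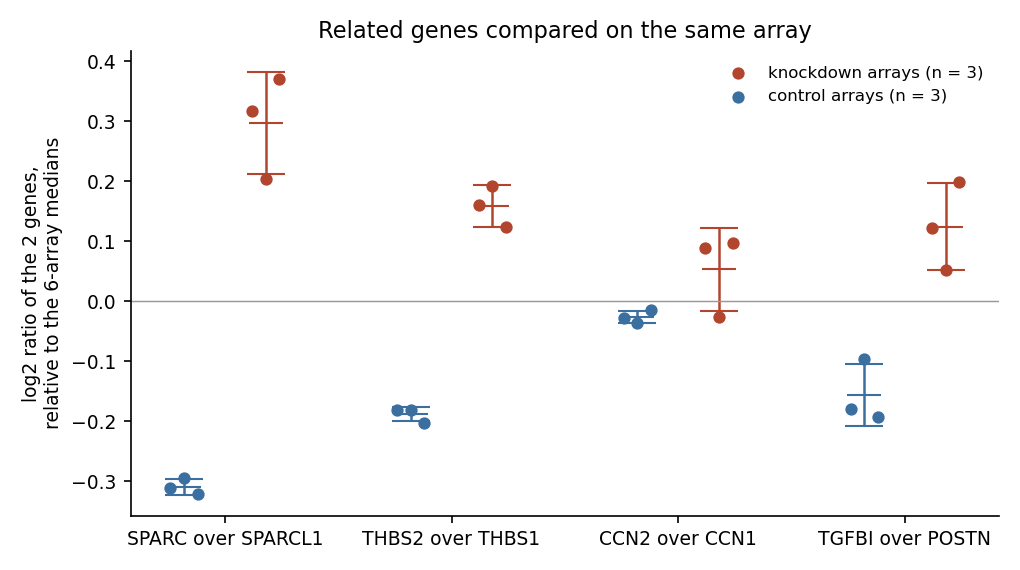
Log2 ratio of related genes on each array (y axis, relative to the 6-array medians) for 4 comparisons (x axis), with knockdown arrays in red, control arrays in blue, and bars giving the mean and SD of 3 arrays. The ratios stand apart between groups for SPARC over SPARCL1, THBS2 over THBS1 and TGFBI over POSTN, and overlap for CCN2 over CCN1.

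Further members of the same families were read in the same way. The counts of this and the later lists stand beside 6.36% of all genes called higher and 4.63% called lower. Among the CCN relatives 1 of 4 rose, CCN4 (WISP1) at 0.49 ± 0.04 (SE, adjusted p = 0.000599), and CCN3, CCN5 and CCN6 were at 0.06, 0.20 and -0.02 without passing. Of 6 further SPARC relatives 2 rose, FSTL1 at 0.19 (adjusted p = 0.0207) and SPOCK1 at 0.16 (adjusted p = 0.0429). With _s_at and _x_at probe sets dropped FSTL1 was at 0.04 (adjusted p = 0.794), and its call was also lost without knockdown replicate 2 or 3 or any control array (adjusted p up to 0.0759). SPOCK1 was not called without any 1 of the 6 arrays (up to 0.114). Of 3 further thrombospondins THBS3 rose, at 0.17 (adjusted p = 0.0297), a call also lost without any 1 array (up to 0.101). None of the 2 further tenascins or of the 2 other fasciclin-domain genes was called.

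Other adhesive and basement membrane glycoproteins gave 7 rises and 0 falls among 27 genes, with a median log2 fold change of 0.12. EFEMP1, the fibulin-like protein of elastic fibres, rose by 0.65 ± 0.04 (SE, adjusted p = 0.000165), but was at 0.38 and did not pass without the _s_at, _x_at and _a_at probe sets (adjusted p = 0.0534). NID2, a nidogen that bridges laminin and collagen IV, rose by 0.47 ± 0.07 (adjusted p = 0.00476). Of 17 proteases and crosslinking enzymes that act on such proteins 9 rose and 2 fell, with a median of 0.19. LOXL1, a lysyl oxidase, and PLAT, tissue plasminogen activator, rose by 0.66 and 0.46. ADAMTS1, a protease that cleaves thrombospondins, fell by 0.30, and the cathepsin gene CTSL by 0.21. CTSL did not pass without control replicate 2 (adjusted p = 0.0535) or with the replicate number as a block (0.0546). It also did not pass when each gene was read by its most variable probe set (0.0651).

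Among 18 receptors that bind the 10 proteins, 3 rose and 2 fell, with a median of 0.05. ITGA5, the alpha chain of the fibronectin receptor, rose by 0.31 ± 0.05 (SE, adjusted p = 0.0106), but was at 0.21 and did not pass when the _s_at and _x_at probe sets were left out (adjusted p = 0.0791). SDC1, a syndecan, rose by 0.28 ± 0.05 (adjusted p = 0.00947). ITGA2, the alpha chain of a collagen receptor, fell by 0.62 ± 0.06 (adjusted p = 0.000893), and SDC4 fell by 0.18, a call lost without any 1 array (adjusted p up to 0.126). SDC4 was at -0.34 with its most variable probe set and at -0.09 without the _s_at, _x_at and _a_at probe sets.

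Of 15 genes of TGF-beta signalling 6 rose and 1 fell, with a median of 0.13. LTBP3, which holds latent TGF-beta in the matrix, rose by 0.35 ± 0.05 and the ligand gene TGFB3 by 0.34 ± 0.05 (SE, adjusted p = 0.00403 and 0.00392). SMAD4, the common partner of the SMAD factors, fell by 0.16, not passing without any 1 array (adjusted p up to 0.134), and was at -0.36 with its most variable probe set. TGFB3 ranged from 0.25 to 0.54 with other choices of arrays, probe sets and processing, and was at 0.54 with its own most variable probe set. Of 11 other TGF-beta target genes 3 rose, 1 fell and 7 were not called, with a median of 0.04. COL1A1 and COL1A2, the chains of type I collagen, were at 0.61 and 0.60. With other choices of arrays, probe sets and processing they ranged from 0.49 to 0.95 and from 0.54 to 1.16. The highest values came with the most variable probe sets. TGIF1 fell by 0.14, again a call lost without any 1 array (adjusted p up to 0.119). None of 11 genes for YAP, TAZ, the TEAD factors and their upstream kinases was called, with log2 fold changes from -0.10 to 0.13. Of 15 other YAP and TAZ target genes 2 rose and 2 fell, with a median of 0.02. F3 (tissue factor) and NT5E fell by 0.33 and 0.26, F3 not passing with its most variable probe set. FJX1 rose by 0.21, a call lost without most arrays (adjusted p up to 0.0670). TGFB2 rose by 0.16, a call lost without any 1 array (adjusted p up to 0.121). Of 14 SRF and actin-linked genes 1 rose, MYL9, a myosin light chain, at 0.28 ± 0.04 (SE, adjusted p = 0.00315). This count is near the 6.36% of all genes called higher.

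**Figure D4:**
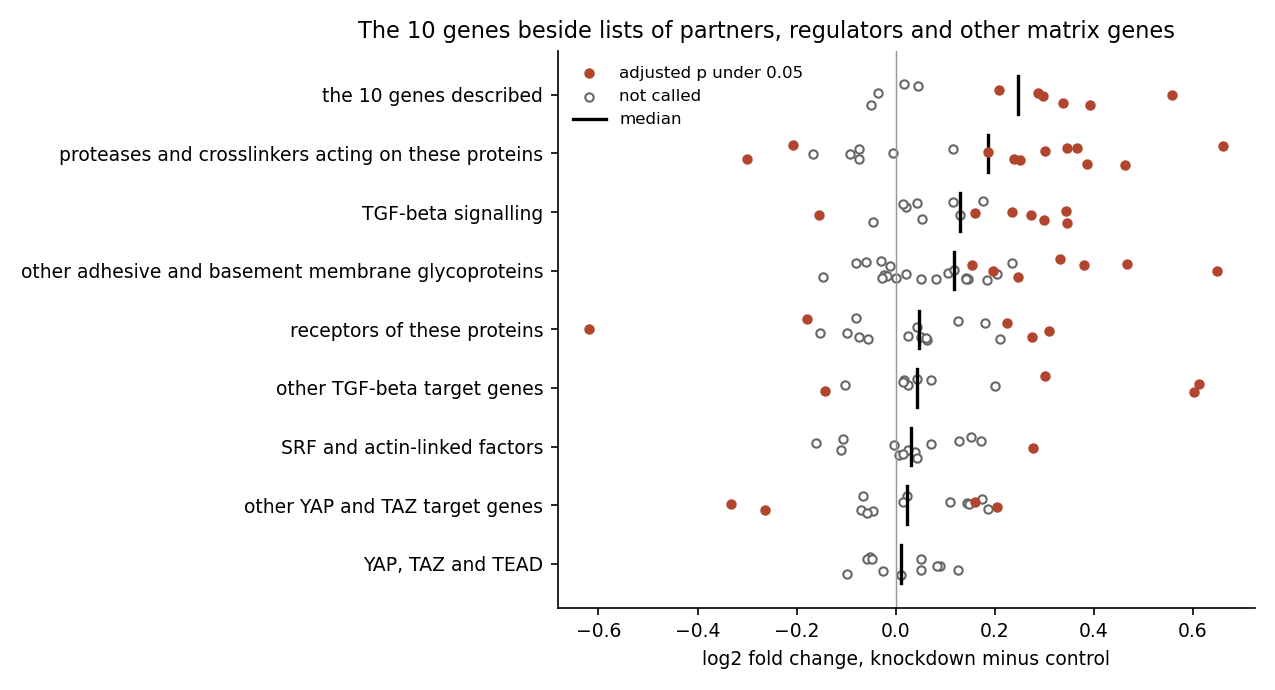
Log2 fold change (x axis, knockdown minus control) of the 10 genes and of the members of 8 lists with at least 10 measured genes (y axis), with filled red points for called genes, open points for the others and a black line at each list's median. The median was 0.25 for the 10 genes, 0.19 for proteases and crosslinkers, 0.13 for TGF-beta signalling, and 0.01 for YAP, TAZ and TEAD.

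The genes whose values over the 6 arrays were most like those of SPARC were PDCD4, IRX5, CDS1, RGS4 and COL5A1, with Pearson correlations of 0.998 to 1.000. These correlations describe 6 arrays in 2 groups whose means differed for each of the genes. The log2 fold changes were 0.20 for PDCD4, 0.35 for IRX5, 0.49 for CDS1, 0.33 for RGS4 and 0.91 for COL5A1, all called, PDCD4 not without knockdown replicate 3 (adjusted p = 0.0508) and at 0.38 with its most variable probe set.

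Of 7 markers of mesenchymal cells and pericytes 4 rose and 0 fell, namely COL1A1 at 0.61, LUM at 0.45, PDGFRB at 0.28 and CSPG4 at 0.25. Their adjusted p was 0.00133, 0.00727, 0.0223 and 0.0270 in that order (limma). COL1A1 and LUM stayed called whichever array was left out, which was not examined for PDGFRB and CSPG4. The other 3, DCN at -0.02, RGS5 at -0.02 and THY1 at -0.15, did not pass and their groups overlapped. The mean over the list was 0.08 to 0.16 in the knockdown arrays and -0.10 to -0.08 in the control arrays. Their part in the results was not tested, and their levels are not known from centred values. In bulk RNA more cells of a type and more RNA per cell cannot be told apart. The ACTB control probe sets at the 3' end minus those at the 5' end gave 0.06 ± 0.05 in the knockdown arrays and -0.02 ± 0.05 in the control arrays (SD, n = 3 each), with overlapping groups. The same difference for GAPDH was 0.02 ± 0.03 in the knockdown arrays and -0.00212 ± 0.01 in the control arrays, also with overlapping groups. The part of these differences in the results was not tested.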

How the data were processed

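Total RNA on 6 arrays, 3 knockdown and 3 control by the labels, was read as 1 log2 value per probe set and array in the deposited table. The authors used RMA, per the submitters' processing notes, with no version given. RMA values are on the log2 scale by convention, and folds assume it, since the table names no log base. The deposited log2 values are also centred, each probe set having a median of 0 over the 6 arrays (largest departure 4.85e-07), a step that no source describes. Array medians lay between -0.00228 and 0.00394, so no further scaling was applied.

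Of 49395 probe sets, 102 Affymetrix controls were left out. Of the 49293 others 44988 had 1 symbol in the platform annotation, 1832 several and 2473 none. A gene's value was the mean of its single-symbol probe sets. The difference between knockdown and control was fitted in R 4.3.3 with limma 3.58.1 (lmFit, eBayes, two-sided, no covariates), on genes and on probe sets, with Benjamini-Hochberg adjustment over all of each, and called at an adjusted p under 0.05. Intervals are 95%. The fit was tested on simulated data. Ratios of related genes were tested by exact permutation (scipy 1.17.1). The number of arrays limits the precision.

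The 10 genes and the lists were chosen with earlier results of these data known. Named from each list, the cell type marker lists apart, are up to 2 called genes with the largest rise and 2 with the largest fall, and the 5 genes most like the member that changed most. CCN3, CCN5, CCN6 and the markers other than COL1A1 fall outside this rule and were chosen after their values were seen. Listed genes without a single-symbol probe set here are not analysed. All 45 probe sets of the 10 genes matched RefSeq gene IDs. Alternatives were quantile normalization, array centring, array weights, a robust variance model, the replicate number as a block, other choices of probe sets, and leaving out each array. Leaving out the _s_at and _x_at probe sets alone, and the block for the ratios, were chosen after seeing the data.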

Additional observations from a re-analysis of the deposited data

How the results depend on the processing

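SPARC, THBS2, FN1, TGFBI and CCN2 kept their direction and their call under every alternative that could be computed for them, and SPARC ranged from 0.47 to 0.67. Without the _s_at, _x_at and _a_at probe sets only THBS1, THBS2 and TNC had a value, and 293 genes were called over the whole table, fewer probe sets being tested. CCN1 was at 0.24 with its most variable probe set (adjusted p = 0.0622) and at 0.19 to 0.22 when arrays were left out (adjusted p 0.0344 to 0.0584). The sign of POSTN and THBS1 turned under some settings, that of TNC and SPARCL1 under none. POSTN was at -0.034 with its most variable probe set, at -0.00276 when _s_at and _x_at probe sets were dropped, and at -0.0244 to 0.0533 when arrays were left out, and THBS1 at -0.00211 to 0.0765 in the latter case; the cause was not tested. Leaving out an array gave 980 to 1402 called genes.

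The replicate numbers did not pair the arrays. Deviations from the group means correlated at -0.0420, -0.0511 and 0.0116 between arrays of the same number, and 2 of 6 arrays correlated best with their own number. A block for the replicate number gave 1036 called genes over the whole table, 6 of the 10 genes and 18 of their probe sets. CCN1 then had an adjusted p of 0.0468, and no call among the 10 genes changed. Since values are centred, signal over background is not known, nor which genes were detected.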

Other observations

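None of 8 glial and astrocyte markers was called, with log2 fold changes from -0.13 to 0.10, nor any of 6 epithelial markers, from -0.08 to 0.29. The highest epithelial value was that of EPCAM, which did not pass (adjusted p = 0.0890). None of 6 endothelial markers was called, but all were negative, from -0.21 to -0.02. PECAM1, ESAM and VWF had groups that did not overlap (adjusted p = 0.111, 0.459 and 0.431, limma). So did AQP4 of the glial and astrocyte list, lower in the knockdown arrays at -0.12 (adjusted p = 0.243, limma). The share of all genes with such lower groups was not computed, so no shift of the endothelial list can be read from this. The mean over the endothelial list was -0.08 to -0.01 in the knockdown arrays and 0.01 to 0.07 in the control arrays. The mean over 5 leukocyte markers was -0.05 to -0.00176 in the knockdown arrays and 0.01 to 0.02 in the control arrays, again without overlap. Taken singly, PTPRC, CD3E, CD14 and AIF1 each had overlapping groups and were not called, so the list did not move as a set. Only LYZ stood apart and was called lower, at -0.19 (adjusted p = 0.0291). With _s_at and _x_at probe sets dropped it was at -0.11 (adjusted p = 0.259), and the call was also lost without knockdown replicate 2 or 3 or any control array (adjusted p up to 0.0880).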
